A study of Mus musculus with 32 samples.

Results

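Striatal RNA of mice that carried the zQ175 allele and no functional Msh3 was set against that of wild-type mice, to describe what remained abnormal once Msh3 was absent. The members were the 8 mice labelled zQ175:Msh3-/- (5 males and 3 females) and the 8 labelled wild-type (4 males and 4 females), 16 of the 32 mice of the series, chosen by genotype label alone. The other 16 were 8 Msh3-/- and 8 zQ175 mice. All were on a C57BL/6J background and were 6 months old. zQ175 mice carry a knock-in huntingtin (Htt) allele with a highly expanded CAG repeat in its first exon. Msh3-/- mice carry a CRISPR deletion of internal exons on each copy of the mismatch repair gene Msh3, and the genotypes were bred as littermates. The deposited tables hold poly(A)-selected RNA counts per gene, with between 12946237 and 22983977 counts in each of the 16 mice. Levels are given as CPM, counts scaled to 1000000 per library after adjustment between libraries, and a gene was called changed when its adjusted p was under 0.05 and its fold change at least 1.2.

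Most striatal neurons are spiny projection neurons, which receive cortical glutamate and midbrain dopamine and send GABAergic output. Those of the direct pathway carry the D1 dopamine receptor, those of the indirect pathway the D2 receptor, an adenosine receptor and enkephalin, and each kind reads its inputs through cyclic AMP and calcium. Loss of spiny neuron transcripts is a long-known feature of Huntington's disease tissue and mouse models. Msh3 forms part of the mismatch repair complex that drives somatic growth of the CAG repeat. In bulk tissue, fewer cells of a type and less RNA per cell cannot be told apart.

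The targeted gene followed its label. Msh3 (ENSMUSG00000014850, GRCm38 chromosome 13, 92211872 to 92355003) lay between 22.9 and 27.5 CPM in wild-type mice (median 23.7) and between 11.1 and 14.2 CPM in zQ175:Msh3-/- mice (median 12.8). The groups did not overlap (log2 fold change -0.93 ± 0.06 (SE), edgeR adjusted p = 6.42e-15). Counts are summed over the gene, so transcript from outside the deleted exons still counts. Htt was between 152 and 190 CPM in wild-type (median 170) and between 132 and 157 CPM in double mutant mice (median 149). Its log2 fold change of -0.20 ± 0.04 had an adjusted p of 0.000129 but did not reach the 1.2-fold limit.

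Of 16610 genes tested, 1992 were called (12%), 914 higher (5.50%) and 1078 lower (6.49%) in zQ175:Msh3-/- than in wild-type striatum. Lowered genes included all 18 of the genes shared by spiny neurons, 13 of 23 striatal receptors and 11 of 28 cyclic nucleotide genes, whereas the raised genes included the polycomb-related gene Sfmbt2 and protocadherins. A change of at least 1.5-fold was reached by 245 raised and 323 lowered genes, of at least 2-fold by 39 and 86, and of at least 4-fold by 3 and 12. The lowered side was therefore the longer among large changes. The 2 groups of mice did not overlap for 1029 of the 16610 genes (6.20%), among them 232 of the 914 raised and 514 of the 1078 lowered genes. Among the 4153 genes with the highest mean level, 68 were raised and 381 lowered, whereas among the 4153 with the lowest level 287 were raised and 223 lowered. By gene span, the longest quartile held 247 raised and 357 lowered genes and the shortest held 236 and 248. The split of calls depended on the scale. On the deposited TPM values over the same genes, limma with log2(TPM + 0.1) called 1697 raised and 712 lowered, so that 70.4% were higher against 45.9% on counts. The median log2 fold change of all tested genes was 0.09 on that scale and 0.01 on counts. The plot of change against level shows where the named genes sit.

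**Figure D1:**
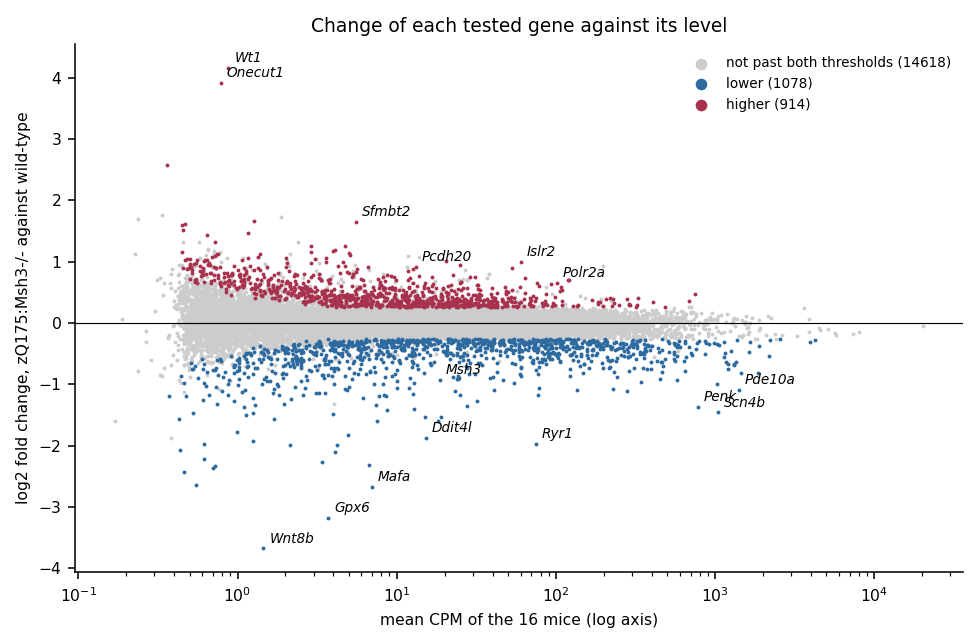
Log2 fold change of each of the 16610 tested genes in zQ175:Msh3-/- against wild-type striatum (vertical axis) against its mean CPM over the 16 mice (horizontal, log axis); red, 914 raised, blue, 1078 lowered, grey, not past both thresholds. Lowered genes extend to the highest levels, whereas raised genes thin out there.

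Transcripts of spiny neurons headed the lowered genes when these were ordered by adjusted p. Penk, which encodes the enkephalin precursor (ENSMUSG00000045573, chromosome 4, 4133531 to 4138819), lay between 994 and 1248 CPM in wild-type mice (median 1146) and between 391 and 498 CPM in double mutants (median 425). Every double mutant was below every wild-type mouse (log2 fold change -1.37 ± 0.06, edgeR adjusted p = 1.54e-19), and the level was 38.8% of wild-type. Ddit4l, an inhibitor of mTOR signalling (chromosome 3, 137621612 to 137628333), ran from 19.1 to 28.8 CPM in wild-type (median 24.8) and from 5.60 to 7.64 CPM in double mutants (median 6.43), a log2 fold change of -1.88 ± 0.08 (adjusted p = 2.66e-19). Scn4b, the sodium channel beta 4 subunit enriched in striatum (chromosome 9, 45138395 to 45154152), ran from 1265 to 1757 CPM (median 1551) and from 521 to 608 CPM (median 551), a change of -1.46 ± 0.06 (adjusted p = 8.43e-19). The transcription factor Mafa (chromosome 15, 75745490 to 75748228) kept 15.7% of its wild-type level. Its wild-type range was 8.96 to 14.8 CPM (median 12.2) and its double mutant range 1.31 to 3.01 CPM (median 1.83), with an adjusted p of 1.73e-18. Neto2, an auxiliary subunit of kainate receptors, fell from a median of 184 to 85.9 CPM (log2 fold change -1.10 ± 0.06). Adora2a, the adenosine receptor of indirect pathway neurons (chromosome 10, 75316877 to 75334784), fell from a median of 451 CPM (422 to 508) to 222 CPM (214 to 269), with a log2 fold change of -0.96 ± 0.05. Ppp4r4, a regulatory subunit of protein phosphatase 4, went from a median of 75.2 to 42.3 CPM. The antisense transcript Abhd11os went from 10.7 to 2.14 CPM, and since no source used here says whether counting was stranded, reads of its partner gene cannot be told apart from its own. In all 8 of these genes the groups did not overlap. The exact two-sided permutation test over the 16 mice then gives p = 0.000155, the smallest that 12870 arrangements allow. Since the genes were chosen by adjusted p in the same mice, this p adds no separate evidence.

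The largest decreases among genes with at least 1 CPM in the higher group were in genes of low level. Wnt8b, a secreted Wnt ligand, had 26 to 90 counts in each wild-type mouse and 1 to 9 in each double mutant, 12.6 times fewer per total count (95% interval 8.50 to 19.3, counting error only). Gpx6, a glutathione peroxidase of odorant-metabolizing tissue that is also present in striatum, had 73 to 195 counts against 7 to 16, 8.63 times fewer (6.98 to 10.8). Il2rb, the interleukin 2 receptor beta chain, had 15 to 27 counts against 0 to 6, 5.05 times fewer (3.39 to 7.78). None of these overlapped between the groups.

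Among raised genes Sfmbt2 had the smallest adjusted p of those named. Sfmbt2, a polycomb group protein (ENSMUSG00000061186, chromosome 2, 10370510 to 10595253), ran from 2.27 to 3.78 CPM in wild-type mice (median 2.51) and from 7.09 to 10.0 CPM in double mutants (median 8.44). That was 3.14-fold higher (log2 fold change 1.65 ± 0.10, adjusted p = 2.80e-15), with every double mutant above every wild-type mouse. Polr2a, the largest subunit of RNA polymerase II (chromosome 11, 69733997 to 69758637), rose from a median of 79.7 CPM (70.8 to 84.4) to 122 CPM (110 to 138), a change of 0.65 ± 0.04 (adjusted p = 8.27e-14). Islr2, a leucine-rich repeat membrane protein of axons (chromosome 9, 58196297 to 58204319), rose from a median of 43.0 CPM (26.4 to 47.1) to 81.8 CPM (67.6 to 86.4), a 2.00-fold level (log2 SE 0.08). Pcdh20, a protocadherin, rose from 9.21 CPM (7.56 to 10.8) to 17.0 CPM (15.7 to 19.3). Abhd1, an alpha/beta hydrolase, rose from 2.31 to 5.62 CPM, Fat1, an atypical cadherin, from 63.1 to 89.3 CPM, and Gprasp2, a protein that sorts G protein-coupled receptors, from 84.8 to 121 CPM (medians). For each of these 7 genes the groups did not overlap. By size of change the list was led by transcription factors near absence in wild-type striatum. Wt1, a zinc finger factor of kidney and gonad development, had 0 to 4 counts in each wild-type mouse and 14 to 44 in each double mutant, 19.9 times more per total count (95% interval 11.2 to 39.2, counting error only). Onecut1, a homeodomain factor of liver and early neurons, had 0 to 7 counts against 16 to 34, 16.7 times more (9.55 to 31.99). Wt1 and Onecut1 passed the expression filter only through the zQ175 and zQ175:Msh3-/- groups, so they could be called raised but not lowered. Smoc2, a matricellular protein, had 3 to 20 counts against 10 to 68 and its groups overlapped (log2 fold change 1.67 ± 0.47, adjusted p = 0.00732). Smoc2 was not called in zQ175:Msh3-/- against Msh3-/- mice (log2 fold change 0.474, edgeR adjusted p = 0.458). Nor was it called in zQ175 against wild-type mice (1.105, edgeR adjusted p = 0.0924). Whether its rise depends on the zQ175 allele was not tested further. Transcripts antisense to Wt1 cannot be told apart from it either.

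**Figure D2:**
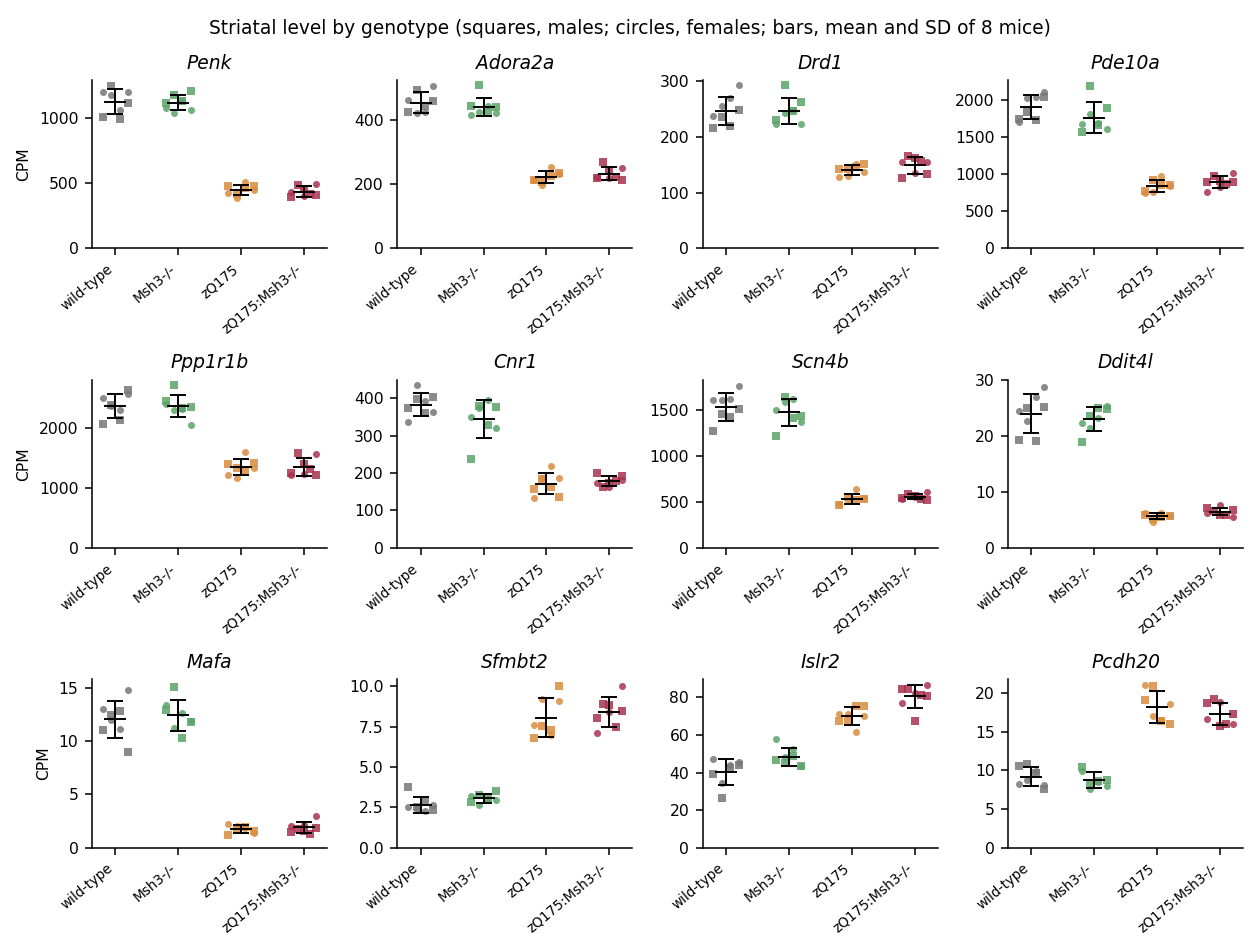
CPM of 12 genes in each of the 8 mice of the 4 genotypes (squares, males; circles, females; bars, mean and SD). For the 9 lowered genes from Penk to Mafa the zQ175:Msh3-/- mice lie below all wild-type mice, and for Sfmbt2, Islr2 and Pcdh20 above them.

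Promoter sequences are shown for 4 genes to let the motif counts below be read against real windows. Sfmbt2 and Ryr1 are a strongly raised and a strongly lowered gene. Htr2c is a raised gene with a match to the loose string searched for AP-1, and Htt carries a cyclic AMP response element (CRE). Each is the 250 bases before the RefSeq start in GRCm38.p6, written 5′ to 3′ along the gene, with matched motifs in capitals.
Sfmbt2 (chr2:10370201-10370450, plus strand): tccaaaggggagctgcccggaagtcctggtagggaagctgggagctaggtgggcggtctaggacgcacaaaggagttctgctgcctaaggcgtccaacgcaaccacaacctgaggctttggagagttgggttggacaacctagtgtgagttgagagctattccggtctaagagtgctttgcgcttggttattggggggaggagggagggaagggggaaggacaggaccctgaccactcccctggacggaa
Ryr1 (chr7:29125152-29125401, minus strand): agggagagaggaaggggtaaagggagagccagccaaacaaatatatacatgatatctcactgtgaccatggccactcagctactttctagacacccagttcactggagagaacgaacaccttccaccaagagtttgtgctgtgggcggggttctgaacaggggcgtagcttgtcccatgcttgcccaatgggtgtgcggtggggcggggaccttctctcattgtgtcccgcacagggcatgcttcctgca
Htr2c (chrX:146962263-146962512, plus strand): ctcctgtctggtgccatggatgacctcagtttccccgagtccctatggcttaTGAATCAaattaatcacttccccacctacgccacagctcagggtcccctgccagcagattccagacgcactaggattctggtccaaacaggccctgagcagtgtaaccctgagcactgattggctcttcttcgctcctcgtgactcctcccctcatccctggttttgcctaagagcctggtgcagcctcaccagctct
Htt (chr5:34761490-34761739, plus strand): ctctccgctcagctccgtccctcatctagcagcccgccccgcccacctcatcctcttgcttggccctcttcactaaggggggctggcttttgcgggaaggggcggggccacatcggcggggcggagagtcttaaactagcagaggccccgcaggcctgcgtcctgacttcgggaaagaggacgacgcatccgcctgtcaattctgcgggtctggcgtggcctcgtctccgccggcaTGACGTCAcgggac
The Htt match begins 14 bases and the Htr2c match 198 bases before the start. The CRE was searched as TGACGTCA, which reads alike on either strand, and AP-1 as TGANTCA on both strands, and the 2 strings cannot overlap completely. With any base allowed at N, TGANTCA is looser than the AP-1 consensus. Its matches, such as TGAATCA in Htr2c, are therefore not all AP-1 sites. A promoter was listed for 11900 of the 16610 tested genes, and a gene with several starts counted as holding a motif if any window did. The CRE stood in 2.97% of all tested genes' windows, 3.67% of those of raised genes (23 of 627) and 1.89% of those of lowered genes (14 of 739). The string TGANTCA stood in 5.36%, 5.26% and 5.28%. These shares are descriptions of letters in a window and carry no test.

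All 18 of 18 genes that spiny neurons of either pathway share were lowered, against 6.49% of all tested genes, and their median log2 fold change was -0.66 (range -1.46 to -0.33) against 0.01 for all genes. Their summed level was 15820 to 19696 CPM in wild-type and 9721 to 11820 CPM in double mutant mice. In 17 of the 18 the groups did not overlap, the exception being Gng7, a G protein gamma subunit (1047 to 1323 against 828 to 1073 CPM). Pde10a, the phosphodiesterase that hydrolyses cyclic AMP and cyclic GMP in spiny neurons (chromosome 17, 8525372 to 8986648), fell from a median of 1938 CPM (1713 to 2117) to 892 CPM (763 to 1015), which is 46.8% of wild-type. Ppp1r1b, which encodes the dopamine-regulated phosphatase inhibitor DARPP-32, fell from 2378 CPM (2061 to 2642) to 1280 CPM (1215 to 1575), a log2 fold change of -0.82 ± 0.07 (adjusted p = 9.48e-12). Arpp21, another cyclic AMP-regulated phosphoprotein, fell from 1374 CPM (1202 to 1519) to 696 CPM (631 to 743). The transcription factors Bcl11b and Foxp1 fell less, from 445 to 324 CPM and from 407 to 317 CPM (medians). All 18 were also called in each of the 16 fits that left out 1 mouse. On the TPM scale 17 of the 18 were lowered.

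Some markers of each output pathway fell. Of 7 tested indirect pathway markers 4 were lowered (Penk, Adora2a, Drd2 and Gpr6, median of the list -0.77), and of 9 direct pathway markers 4 were lowered (Drd1, Chrm4, Pdyn and Sfxn1, median -0.24). Of all tested genes 6.49% were lowered. The log2 fold change was negative for 6 of the 7 indirect and 5 of the 9 direct pathway markers. On TPM values 3 direct pathway markers were lowered and 2 raised. With the cortical and choroid plexus marker sums as covariates 4 were lowered and 1 raised. Whether the lists differ was not tested. Drd2, the D2 receptor, fell from a median of 298 CPM (252 to 332) to 163 CPM (153 to 194), a change of -0.80 ± 0.07. Drd1, the D1 receptor (chromosome 13, 54051183 to 54055705), fell from 243 CPM (216 to 292) to 155 CPM (126 to 165), a change of -0.73 ± 0.06. Tac1, the substance P precursor of direct pathway neurons, showed no detectable difference, with 151 to 175 CPM in wild-type and 147 to 180 CPM in double mutants (adjusted p = 0.789). Of 9 striosome and matrix genes Id4, Kremen1 and Calb1 were lowered, Id4 from 252 to 167 CPM.

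Of 23 tested G protein-coupled receptors of the striatum, 13 were lowered and 2 raised, with a list median of -0.51. The shares over all tested genes were 6.49% lowered and 5.50% raised. Cnr1, the CB1 cannabinoid receptor (chromosome 4, 33924593 to 33948831), fell from a median of 382 CPM (336 to 434) to 175 CPM (162 to 199), a change of -1.10 ± 0.09 (adjusted p = 3.53e-11). The serotonin receptor genes moved in opposite directions. Htr4 fell from 5.60 CPM (3.78 to 7.38) to 2.75 CPM (1.83 to 3.36) and Htr1b from 74.6 to 46.8 CPM, whereas Htr2c rose from 57.3 CPM (46.8 to 77.8) to 89.8 CPM (75.2 to 127), a change of 0.66 ± 0.12 (adjusted p = 0.00011). The orphan receptor Gpr149 was the other raised member, at 7.02 against 11.4 CPM. The mu opioid receptor Oprm1, a striosome marker, was at 2.66 and 2.40 CPM (adjusted p = 0.741).

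Downstream of the receptors, 8 of 15 regulators of G protein signalling were lowered and none raised. Of 28 cyclic nucleotide genes 11 were lowered and 2 raised, against 6.49% and 5.50% of all tested genes. Rgs14 fell from a median of 72.6 to 35.7 CPM and Rgs4 from 755 CPM (732 to 803) to 395 CPM (364 to 435). Rgs9, which speeds the shut-off of dopamine receptor signalling, fell from 600 to 331 CPM. Adcy5, the main adenylyl cyclase of spiny neurons, fell from 1878 CPM (1647 to 2082) to 1024 CPM (978 to 1199). The raised pair were Pde4d, a cyclic AMP phosphodiesterase (27.7 against 34.4 CPM), and Prkar1b, a regulatory subunit of protein kinase A (363 against 460 CPM).

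Among ion channels, 11 of 31 potassium channel genes were lowered and 1 raised. Of 30 sodium and calcium channel and calcium store genes 11 were lowered and 1 raised. Over all tested genes 6.49% were lowered and 5.50% raised. Ryr1, the ryanodine receptor that releases calcium from internal stores (chromosome 7, 29003344 to 29125179), showed the largest change of these lists, from a median of 122 CPM (89.1 to 158) to 30.0 CPM (28.7 to 34.2), a log2 fold change of -1.97 ± 0.10 (adjusted p = 1.89e-15). Itpr1, the inositol trisphosphate receptor of the same stores, fell from 1469 to 964 CPM and Atp2b1, a calcium pump of the plasma membrane, from 1601 to 1009 CPM. Kcnab1, a potassium channel beta subunit, fell from 440 CPM (403 to 489) to 260 CPM (256 to 285). Cacna2d1, a calcium channel accessory subunit and the raised member, went from 125 to 153 CPM. The raised potassium channel, Kcnj3, had an adjusted p of 0.046 and was called in 6 of the 16 fits that left out 1 mouse. With the cortical and choroid plexus marker sums as covariates neither raised call held (Cacna2d1 log2 fold change 0.21, Kcnj3 0.14). On TPM values 7 potassium channel genes were lowered and 2 raised, and 10 sodium and calcium genes were lowered and 5 raised.

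At the synapse, 11 of 32 glutamate receptor and postsynaptic density genes were lowered and 2 raised, against 6.49% and 5.50% of all tested genes. Homer1, a scaffold of metabotropic receptors, fell from 317 CPM (255 to 387) to 169 CPM (138 to 204), Grm5, the metabotropic receptor that it binds, from 414 to 302 CPM, and Shank3, a postsynaptic scaffold, from 532 to 341 CPM. The AMPA receptor subunits Gria1 to Gria4 had log2 fold changes between -0.14 and -0.01 and none passed. Of 14 GABA-A receptor genes 3 were lowered (Gabrd, Gabra4 and Gabrq) and Gabra5 was raised. Gabrd, the delta subunit of extrasynaptic receptors, fell from 130 to 82.5 CPM. The calls of Gabrq and Gabra5 held in 12 and 13 of the 16 fits without 1 mouse. The raised glutamate receptor genes were Grik4, a kainate receptor subunit, and Grm8, a metabotropic receptor whose call held in 6 of those 16 fits, and the raised count of the list ran from 1 to 4 over them. With the marker sums as covariates 0 genes of the glutamate list and 0 of the GABA-A list were raised (Gabra5 log2 fold change 0.19, adjusted p = 0.117). On TPM values 6 of the 32 glutamate genes were lowered and 5 raised, and 1 of the 14 GABA-A genes was lowered and 1 raised.

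**Figure D3:**
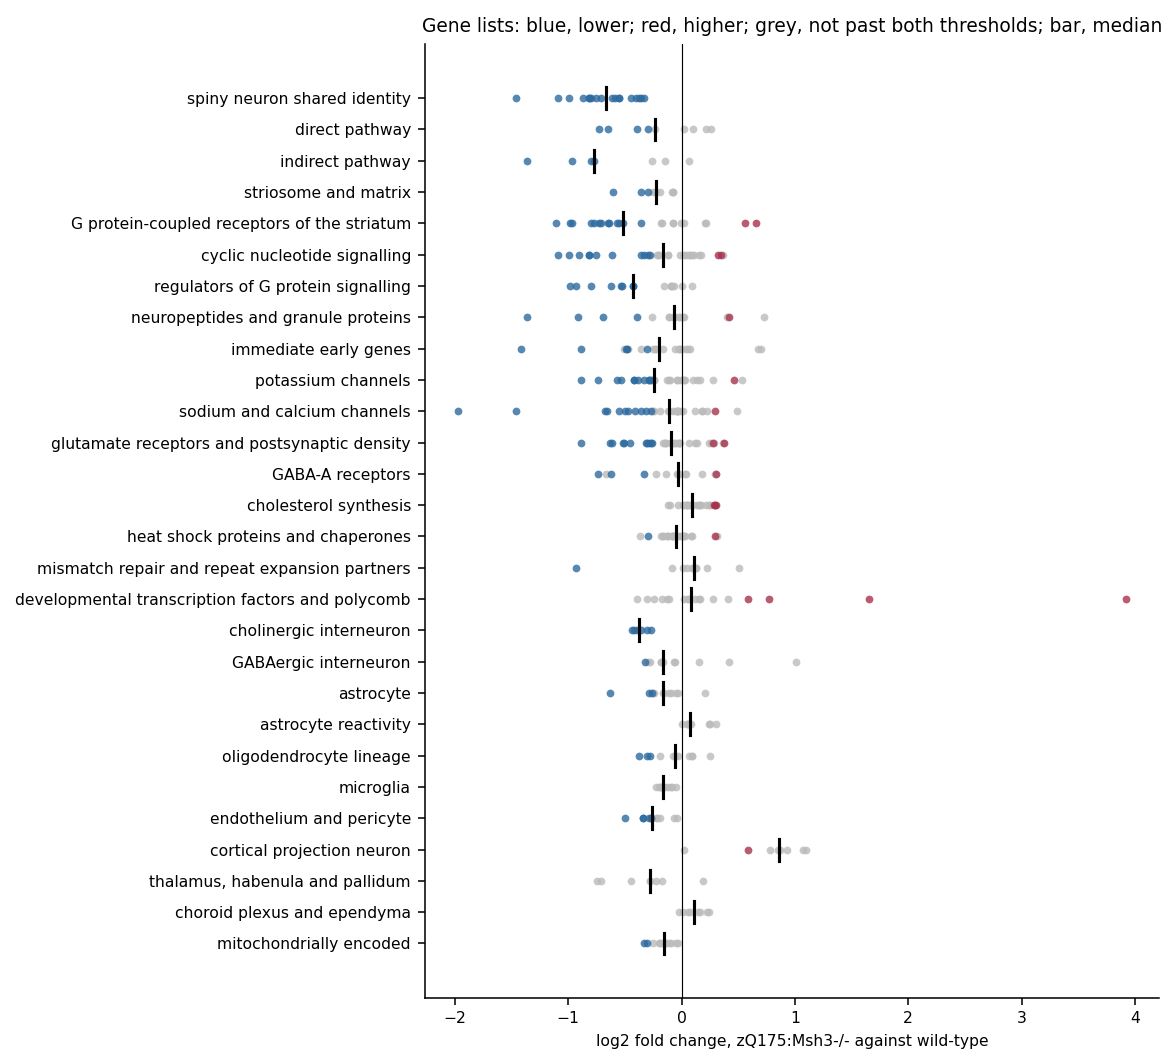
Log2 fold change in zQ175:Msh3-/- against wild-type striatum (horizontal axis) of each tested member of the 28 gene lists (rows); blue, lowered, red, raised, grey, not past both thresholds, and black bars, list medians. The 18 shared spiny neuron genes are all lowered, whereas the microglia and astrocyte reactivity lists hold no called gene.

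The activity-regulated and neuropeptide genes were mixed. Of 22 immediate early genes 5 were lowered and none raised (Egr2, Homer1, Egr3, Egr1 and Ier5). The shares of all tested genes were 6.49% lowered and 5.50% raised. Egr2, a zinc finger factor induced by activity, ran from 6.39 to 16.9 CPM in wild-type (median 13.2) and from 2.08 to 7.40 CPM in double mutants (median 4.62), so that the groups overlapped (adjusted p = 0.0075). Fos was at 12.4 and 16.2 CPM with wide ranges (5.85 to 23.6 and 8.92 to 25.1; adjusted p = 0.941). The Egr1 call held in 6 of 16 fits without 1 mouse. Of 17 neuropeptide and granule genes Penk, Pdyn, Crh and Cartpt were lowered and Pcsk1, a prohormone convertase, was raised (16.1 against 21.5 CPM, adjusted p = 0.0128). The calls of Crh and Cartpt held in 9 and 4 of those 16 fits, and leaving out wild-type male 1 left 2 lowered genes in this list. On TPM values 3 immediate early and 2 neuropeptide genes were lowered.

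All 6 cholinergic interneuron genes were lowered by a smaller amount (median -0.38), against 6.49% of all tested genes. These giant interneurons supply striatal acetylcholine. In zQ175 against wild-type 2 of the 6 genes were lowered (median -0.24), and in zQ175:Msh3-/- against Msh3-/- 5 were (median -0.34). Slc5a7, the choline transporter, fell from 44.1 CPM (40.3 to 53.3) to 33.6 CPM (29.6 to 38.5), a change of -0.44 ± 0.06 (adjusted p = 2.80e-07). Chat, the enzyme that makes acetylcholine, fell from 26.8 CPM (25.2 to 30.7) to 21.3 CPM (19.0 to 24.6). For these 2 genes the groups did not overlap, whereas for Slc18a3, Lhx8 and Slc10a4 they did. Without wild-type male 2 the count was 4 of 6, on the TPM scale it was 4, and with the cortical and choroid plexus marker sums as covariates it was 2. Of 11 GABAergic interneuron genes only Pthlh, a parathyroid hormone-like peptide, was called (adjusted p = 0.0346), and its call held in 9 of the 16 fits without 1 mouse and in neither the covariate fit nor the TPM fit. Somatostatin (Sst) was at 147 and 139 CPM (adjusted p = 0.458).

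In glia and vessels 5 of 12 endothelial and pericyte, 3 of 12 astrocyte and 3 of 12 oligodendrocyte genes were lowered, against 6.49% of all tested genes, and none was raised. All 12 log2 fold changes of the first list and 11 of 12 of the astrocyte list were negative. On TPM values the lowered counts were 3, 1 and 1, and with the marker sums as covariates 5, 3 and 1. In zQ175 against wild-type they were 4, 1 and 2, with 1 astrocyte gene raised. In zQ175:Msh3-/- against Msh3-/- they were 1, 2 and 1. No microglia marker of 12 was called, although all 12 log2 fold changes were negative (median -0.16), and summed marker levels were 496 to 575 CPM in wild-type and 435 to 517 CPM in double mutants. None of 8 tested astrocyte reactivity genes was called, although all 8 log2 fold changes were positive, 2 genes were raised on TPM values and up to 2 when 1 mouse was left out. Gfap, the glial filament, was at 121 CPM (99.97 to 136) and 115 CPM (89.7 to 175). The lowered astrocyte genes were Agt, Glul and Slc1a2. Glul, the glutamine synthetase, fell from 1482 to 1224 CPM, and its log2 fold change was -0.26, just under the 1.2-fold limit, without wild-type male 4. Slc1a2, the glutamate transporter, stood at that limit (log2 fold change -0.26) and was called in 6 of 16 fits without 1 mouse. Without wild-type male 4 the list held 1 lowered gene. The lowered endothelial genes included Kdr, the VEGF receptor 2 (16.3 against 11.3 CPM, adjusted p = 1.72e-05), and without wild-type female 2 the list held 3 lowered genes. The lowered oligodendrocyte genes included Ugt8a and Mobp, with a count of 1 without zQ175:Msh3-/- female 1, and Mbp, the most abundant, was at 4677 and 4288 CPM (adjusted p = 0.602).

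Stress, lipid, repair, developmental and mitochondrial lists are set beside the shares of all tested genes, 5.50% raised and 6.49% lowered. Of 25 heat shock and chaperone genes Hsp90b1, the chaperone of the endoplasmic reticulum, was lowered (363 against 296 CPM, adjusted p = 1.17e-05) and Hspa2 raised (38.0 against 46.8 CPM). On TPM values 0 genes of this list were lowered. Of 22 cholesterol synthesis genes 3 were raised, Mvk and Sqle among them, and none lowered, with a list median of 0.09. Mvk, the mevalonate kinase, went from 12.8 CPM (12.2 to 14.97) to 16.3 CPM (14.9 to 17.7). Without wild-type female 2 this list held 1 raised gene, and on TPM values it held 6. It held 0 raised genes in zQ175 against wild-type and 0 in zQ175:Msh3-/- against Msh3-/-. Apart from Msh3, none of 12 mismatch repair and repeat expansion genes was called, although the highest log2 fold change was 0.51. This list held 1 raised gene on TPM values and up to 1 when 1 mouse was left out. It held 1 raised gene in zQ175 against wild-type and 0 in zQ175:Msh3-/- against Msh3-/-. Of 30 developmental factors and polycomb genes 18 could be tested, of which 4 were raised and none lowered, Sfmbt2 and Onecut1 among them. The filter keeps a gene that has enough counts in a group's number of mice. Onecut1, at no more than 0.31 CPM in wild-type mice, entered only through the groups in which it was higher. Genes near absence in wild-type could thus be called raised but not lowered, and the split of this list is partly set by the filter. Of 13 mitochondrially encoded genes mt-Nd2 and mt-Nd3, subunits of complex I, were lowered, with mt-Nd2 at 4325 CPM (3846 to 5228) against 3488 CPM (3194 to 3919). On TPM values 1 gene of this list was lowered. The list held 0 lowered genes in zQ175 against wild-type and 0 in zQ175:Msh3-/- against Msh3-/-.

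Markers of neighbouring tissue varied between mice, and those of cortex were higher in double mutants by their medians. The 8 cortical projection neuron markers summed to 68.7 to 333 CPM in wild-type (median 221) and to 154 to 698 CPM in double mutants (median 354), with a list median log2 fold change of 0.86. Only Fezf2, a cortical transcription factor, was called (adjusted p = 0.0413), in 7 of 16 fits without 1 mouse. The 8 choroid plexus and ependyma markers summed to 56.8 to 1618 CPM in wild-type and 57.3 to 3037 CPM in double mutants, and no marker of either list was at 0 in any of the 16 mice. Their medians were 154 and 106 CPM, the list median log2 fold change was 0.11 and none was called. The 8 thalamus, habenula and pallidum markers summed to 24.2 to 62.4 CPM and 24.6 to 35.1 CPM, with 7 of 8 log2 fold changes negative (median -0.28) and none called. With the logarithm of both sums as covariates, a fit added after the data were seen, 1927 genes were called, 891 higher and 1036 lower. These held 712 of the 914 raised and 915 of the 1078 lowered genes, and all 18 shared spiny neuron genes. Without the mice over 1000 CPM of choroid plexus markers (2 wild-type and 1 double mutant among the 16) 1936 genes were called.

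**Figure D4:**
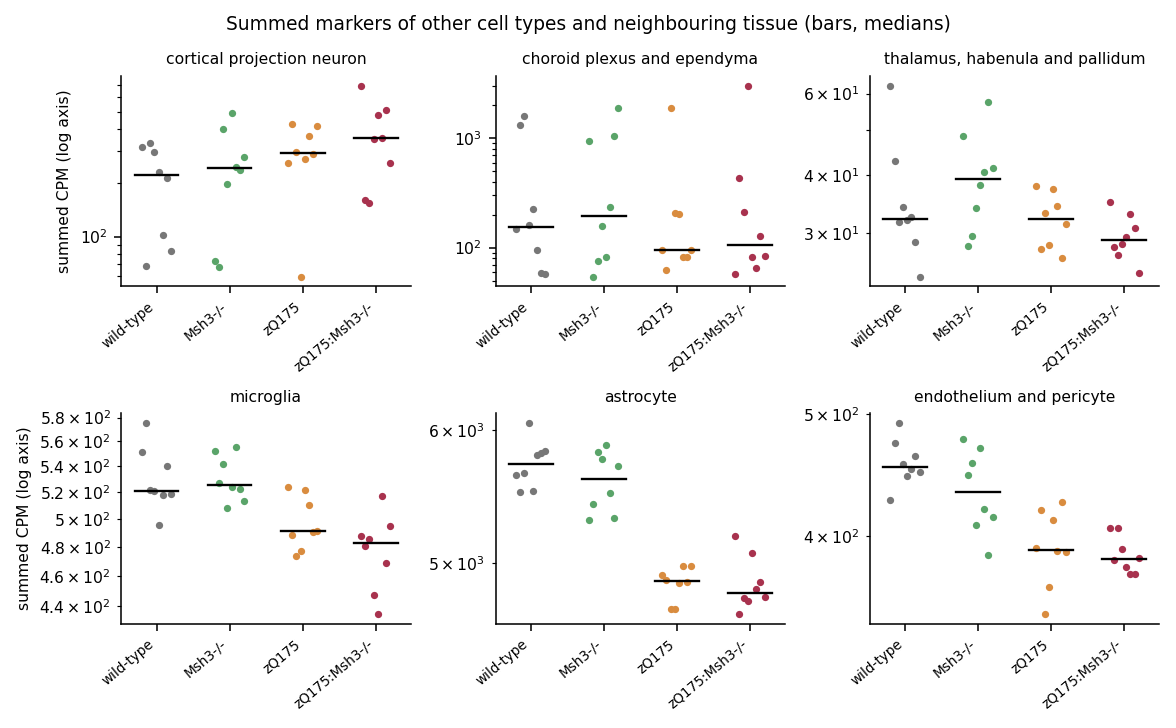
Summed CPM (vertical, log axes that do not start at 0) of markers of 6 other cell types or tissues in each mouse of the 4 genotypes, with bars at the medians. Cortical and choroid plexus sums spread over several-fold within every genotype, and the highest of each is a zQ175:Msh3-/- mouse.

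The zQ175 mice were set against the same wild-type mice, so that both comparisons share controls and their values are given side by side. In zQ175 against wild-type 11.6% of tested genes were called, and in zQ175:Msh3-/- against Msh3-/- 10.6%. The shared spiny neuron list had 18 of 18 genes lowered in each, with medians of -0.70 and -0.63. Penk had a log2 fold change of -1.32 in zQ175 and -1.37 in double mutants against wild-type, and -1.36 in double mutants against Msh3-/-. Sfmbt2 had 1.59, 1.65 and 1.46 in the same order. The direct difference between zQ175:Msh3-/- and zQ175 mice passed the thresholds for 1 gene, Msh3 itself (log2 difference -0.92, 95% interval -1.04 to -0.81, adjusted p = 1.42e-13), with 614 genes at an unadjusted p under 0.05. For Penk the difference was -0.04 (interval -0.16 to 0.07), for Pde10a 0.09 (-0.05 to 0.22), for Drd1 0.08 (-0.05 to 0.20) and for Ppp1r1b 0.00 (-0.13 to 0.13). For Ddit4l and Islr2 it was 0.20 with intervals of 0.02 to 0.38 and 0.04 to 0.36, and for Htt 0.12 (0.04 to 0.20). For Slc5a7 it was -0.13 (-0.25 to -0.01) and for Hspa2 0.13 (0.02 to 0.23). None of these differences passed adjustment (0.999 each). Over the 1992 called genes the median half-width of this interval was 0.19.

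**Figure D5:**
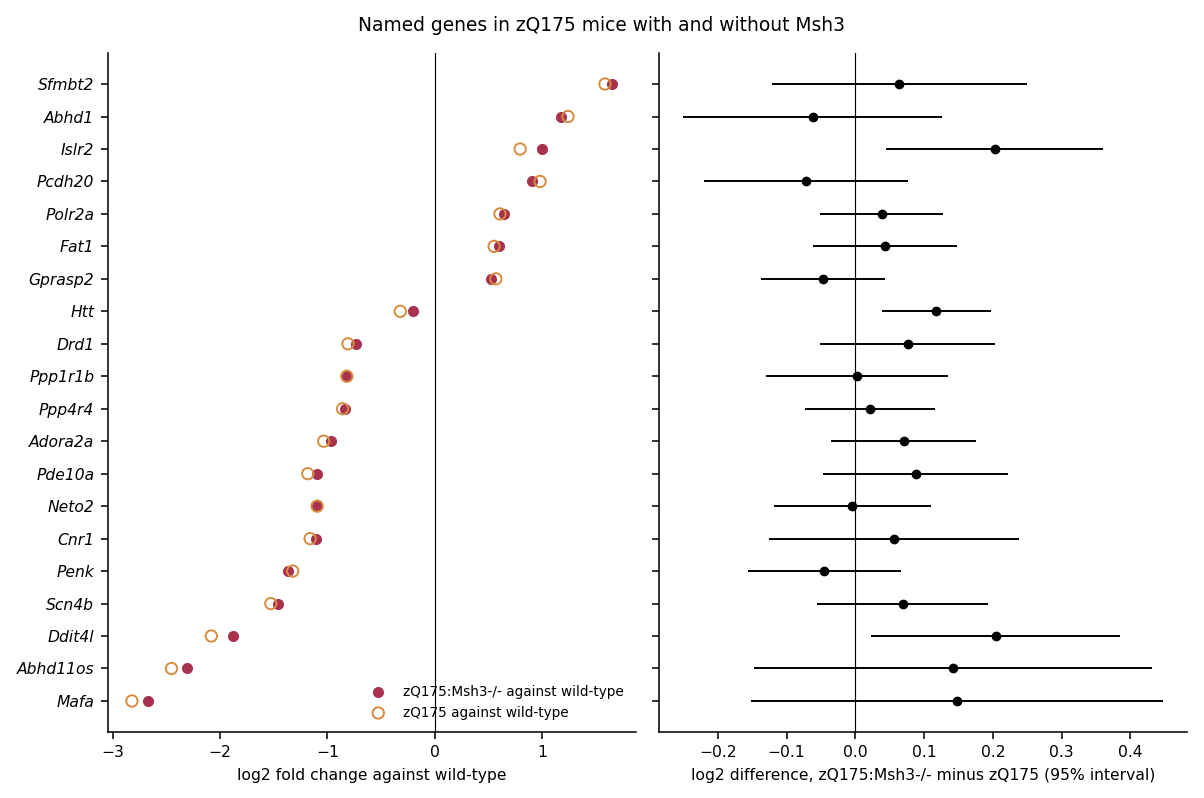
Left, log2 fold change against wild-type of genes with the smallest adjusted p-values and of the fixed striatal genes, in zQ175:Msh3-/- (filled) and zQ175 (open) striatum; right, the log2 difference between those genotypes with its 95% interval. Apart from Ddit4l, Islr2 and Htt, every interval shown includes 0.

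Sex and position were examined last. A difference in the change between males and females passed adjustment for no gene (0 genes in edgeR, with 1199 at an unadjusted p under 0.05, where 830.5 would be at that level by chance; 0 and 1093 in DESeq2). Penk fell by 1.34 in males and by 1.38 in females on the log2 scale, and Drd1 by 0.63 and by 0.83. Within 5 Mb of Htt, whose locus carries the knock-in, 9 of 139 tested genes were raised and 10 lowered (13.7%), and within 5 Mb of Msh3 2 of 54 were raised and 6 lowered (14.8%), near the 12% of all genes. No neighbour of either gene was called in Msh3-/- against wild-type mice.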

How the data were processed

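RNA was taken from the striatum of 32 mice, 8 of each genotype. The authors made poly(A)-selected libraries, sequenced them as paired-end reads and deposited a table of raw counts per gene, and a second table that the authors named FPKM. Each of its columns sums to 1000000, so the deposited values were treated as TPM. The build is GRCm38.p6 per the labels, and the aligner, the counter and its strand setting are not given in the sources used here. Of 54532 gene identifiers 54495 were named through GENCODE M21.

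Counts were tested with edgeR 4.0.16 (R 4.3.3): filterByExpr, TMM, robust quasi-likelihood fit of all 32 mice by genotype, and Benjamini-Hochberg adjustment, with calls at adjusted p under 0.05 and a fold of at least 1.2. The common biological coefficient of variation was 0.0985. Values are mean log2 fold change ± SE, n = 8 mice a group. Single genes were also compared by an exact two-sided permutation test. In simulated counts of 16610 genes, 90% of 200 genes changed 1.5-fold were recovered, with 4 false calls. The 200 were drawn from genes above a minimum level in wild-type mice, so recovery of the lowest tested genes was not simulated. The total counts limit precision: 3 counts are 2.32e-05% of the shallowest of the 16 libraries. Pairs of mice of a group differed by at least 5.06 times the sampling noise (chi-square per degree of freedom).

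Named genes were the 8 raised and 8 lowered with the smallest adjusted p, the 4 of each with the largest change at 1 CPM or more, up to 2 called members a direction of each of 28 lists with its most abundant member where that was not called, and 8 fixed genes. Predicted genes were passed over in the first 2 steps, and other list members were named for context after their values were seen. Lists and members were chosen with earlier results of these data known. Some genes the rule picks are not reported here. Of 434 list genes 417 were tested: 19 were raised, 110 lowered and 288 did not pass. Alternatives used DESeq2 1.42.0, RLE scaling, other filters, sex or a replicate block in the model, the 16 mice alone, limma 3.58.1 on log2 TPM, and left-out mice.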

Additional observations from a re-analysis of the deposited data

Results flagged for a closer look

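In the 2 groups of 8 mice, each named gene was examined for a mouse far from the other 7 on the log2 scale (gap to the nearest mouse divided by the group's range, above the Dixon 95% critical value for 8). Of 176 sets 11 were flagged, and chance flags about 1 in 20, or 8.8. Among spiny neuron and channel genes of zQ175:Msh3-/- mice, male 2 was the highest for Chrm4, the M4 muscarinic receptor (39.5 CPM against 30.0 to 34.1 in the others, ratio 0.539), and for Kcnj4, an inward rectifier channel (165 CPM against 141 to 149, ratio 0.627). Male 1 was the highest for Cpe, carboxypeptidase E (2096 CPM against 1745 to 1888, ratio 0.570), male 3 the lowest for Islr2 (67.6 CPM against 77.1 to 86.4, ratio 0.536), and female 3 the highest for Ryr1 (34.2 CPM against 28.7 to 30.9, ratio 0.581).

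In wild-type mice male 4 was the highest for Glul (1697 CPM against 1435 to 1551, ratio 0.535) and for Kremen1, of the striosome and matrix list (52.5 CPM against 41.3 to 45.2, ratio 0.626). Male 1 was the highest for Sfmbt2 (3.78 CPM against 2.27 to 2.83, ratio 0.567) and for Prkcd, a kinase abundant in thalamus (28.2 CPM against 7.82 to 14.1, ratio 0.541). Female 4 was the highest for Id4 (312 CPM against 228 to 263, ratio 0.554), and female 1 the lowest for Mbp (4033 CPM against 4480 to 4918, ratio 0.530). For Ryr1, Sfmbt2, Islr2, Kcnj4 and Chrm4 the flagged mouse was the nearest of its group to the other group and still lay on its own side. For Id4, Kremen1 and Glul the flagged wild-type mouse pointed away from the double mutants, so its side was fixed in advance.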

How the results depend on the processing

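The count of 1992 genes stayed within 1.5 times under most alternatives. It was 4469 with no fold limit, 568 at 1.5-fold, 624 when the test itself was against 1.2-fold (29.3% higher), and 1244 in males alone (9 mice), against 1798 in females alone (7 mice). It ranged from 1840 to 2112 when 1 mouse was left out, with 44.1% to 46.6% higher. DESeq2 called 1887 genes. The share of calls that were higher moved from 45.9% to 69.5% on log2(TPM + 0.1), 68.1% on log2(TPM + 1), 68.9% without a filter and 70.4% over the genes tested on counts. The cause was not tested. A sex difference in the change passed adjustment for 0 genes in each of the 3 fits.

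The labels give replicate numbers within sex, but they do not pair the mice: the deviations of 7 same-numbered pairs correlated between -0.04 and 0.27, over 0.1 in 3, and 2 of the double mutants correlated best with their own number. With the replicate block 1901 genes were called (45.3% higher).

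Of the 88 named genes 71 were called. No called named gene reversed under any alternative. Of the 71, 62 kept their call in all 16 fits without 1 mouse, and 38 kept it under every alternative, the stricter fold limits included. Uncalled genes could change sign, as Gfap did over the fits without 1 mouse (log2 fold change -0.10 to 0.05). With the marker sums as covariates, an alternative chosen after seeing the data like the left-out choroid plexus mice and the TPM values over shared genes, 12 called named genes no longer passed. Wnt8b, Gpx6, Il2rb, Smoc2, Onecut1 and Wt1 had no value under the filter of 10 counts in every mouse.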

Other observations

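The beta cluster of the protocadherins, adhesion molecules that give neurons surface identity, was the family with the largest share of called genes among families of at least 15 tested members with a shared symbol stem, and the protocadherins were singled out after their values were seen. Of 21 beta cluster genes 16 were raised and 1 lowered (Pcdhb8), with a median log2 fold change of 0.44 against 0.01 for all genes and 12% of all genes called. Pcdhb22 ran from 10.1 to 12.5 CPM in wild-type and from 17.2 to 20.4 CPM in double mutant mice, and Pcdhb9 from 12.4 to 14.0 and from 17.2 to 23.1 CPM, with no overlap. Of 14 alpha cluster genes 7 were raised and none lowered, and of 22 gamma cluster genes 4 were raised and 4 lowered. Outside the clusters 4 of 11 protocadherins were raised, Pcdh20, Pcdh19, Pcdh10 and Pcdh15. In the beta cluster 14 genes were raised with the marker sums as covariates, 17 on TPM values, 13 in males alone and 11 in females alone. Against wild-type 14 beta cluster genes were raised in zQ175 mice too. Members of these clusters share sequence, and those of the alpha and gamma clusters share their last exons, so the counting could split reads between them.

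Ribosomal and ubiquitin families are given beside the shares of all tested genes, 5.50% raised and 6.49% lowered. Of 49 tested Rps genes of the small ribosomal subunit 3 were lowered (6.12%), near that share, and none raised (median -0.06). None of 55 tested Rpl genes of the large ribosomal subunit, 50 Mrpl and 29 Mrps genes of the mitochondrial ribosome and 41 genes with the stem Ube, most of them ubiquitin-conjugating enzymes and ligases, passed both thresholds, with medians between -0.05 and 0.02.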
